A study of Homo sapiens with 4 samples.

Results

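The regions described here were WDR5 binding sites of HSSY II cells that carried no SS18::SSX peak, lay outside promoters, and were still called after WDR5 was degraded with MS67. They were chosen from CUT&RUN peak lists by 3 conditions on a peak of the WDR5 DMSO list: no overlap with a peak of the SS18::SSX DMSO list, an overlap of at least 1 bp with a peak of the WDR5 MS67 list, and a centre that stays clear of promoters, taken as the 1000 bp before and the 100 bp after each start site of a protein-coding or lncRNA gene. Of 35605 WDR5 DMSO peaks, 30647 had no SS18::SSX peak, 22153 of these were not at a promoter, and 4223 of those were kept with MS67 (11.9% of all WDR5 DMSO peaks). The other 17930 WDR5-only non-promoter peaks are called lost below. Being kept, and the height of a peak in either WDR5 list, were thus used to choose the members, and these values are given as a description.

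CUT&RUN releases the DNA around an antibody-bound protein with a tethered nuclease and sequences it, and a peak is a stretch with more fragments than its surroundings. HSSY II is a synovial sarcoma cell line that expresses SS18::SSX1, a fusion of the SWI/SNF subunit SS18 with SSX1, and all 4 libraries came from these fusion-positive cells. The cells had been treated for 4 days with vehicle (DMSO) or with 2.5 μM MS67, a PROTAC that recruits the VHL ubiquitin ligase to WDR5, and 1 library was made for each antibody (WDR5 or SS18::SSX) and treatment, from 1000000 cells with 50000 mouse NIH-3T3 cells as spike-in. Because there was 1 library for each condition, no difference could be set against replicate error and no p-value was computed. The 95% intervals of shares (exact Clopper-Pearson) cover counting error only.

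WDR5 is a WD40-repeat protein that forms the core of the KMT2 (MLL) histone H3 lysine 4 methyltransferases together with RBBP5, ASH2L, and DPY30. The KMT2 family marks active promoters with trimethylation and enhancers with monomethylation of this lysine, and CXXC-domain subunits bring some of these complexes to unmethylated CpG-rich DNA. WDR5 also meets MYC at promoters, among them those of ribosomal protein genes.

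Depth was taken from the peaks, since fold enrichment and p-value together fix the number of fragments at a summit and the local background. The lowest background, used as genome-wide coverage, was 0.368 fragments per bp in the WDR5 DMSO library and 0.168 in the WDR5 MS67 library, so the MS67 library was the shallower of the pair. It held 14123 peaks, and the SS18::SSX lists held 15141 peaks with DMSO and 1175 with MS67.

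The sequences below show what the members look like at their summits. Each is the 300-bp window around the summit of the member with the highest −log10 q under MS67 among those that hold a given short motif, printed from the plus strand of hg38, with the match in capitals on whichever strand it was found. The first lay between genes, 22880 bp upstream of a start site of GATAD1 (a zinc finger protein), at chr7:92424429-92424728, and was also the member of highest −log10 q under MS67 of all. Its capitals mark a match for SP/KLF factors, the most frequent of the motifs in the members. The second lay 9894 bp upstream of LTN1, a ubiquitin ligase of ribosome quality control, at chr21:29002736-29003035, with an ETS match. The third lay 2538 bp upstream of ZSCAN16, in an intron of ZSCAN16-AS1, at chr6:28104992-28105291, with a match to the core letters of CTCF, which here also hold the NFY letters. The fourth, from a member centred in the first intron of LAP3, a leucine aminopeptidase, lay at chr4:17578674-17578973, with an NFY match. The fifth, from a member centred in an exon of the lncRNA gene ENSG00000290002, lay at chr6:73389094-73389393, with an AP-1 match. The sixth, from a member centred in a coding exon of SLC27A3, a fatty acid transport protein, lay at chr1:153776242-153776541, with a TEAD match.
GATAD1: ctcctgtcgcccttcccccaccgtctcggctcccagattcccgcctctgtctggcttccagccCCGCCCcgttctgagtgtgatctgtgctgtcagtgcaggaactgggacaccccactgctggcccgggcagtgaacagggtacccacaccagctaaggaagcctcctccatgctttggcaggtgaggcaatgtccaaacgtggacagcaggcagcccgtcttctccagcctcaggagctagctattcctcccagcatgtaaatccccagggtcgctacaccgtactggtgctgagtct
LTN1: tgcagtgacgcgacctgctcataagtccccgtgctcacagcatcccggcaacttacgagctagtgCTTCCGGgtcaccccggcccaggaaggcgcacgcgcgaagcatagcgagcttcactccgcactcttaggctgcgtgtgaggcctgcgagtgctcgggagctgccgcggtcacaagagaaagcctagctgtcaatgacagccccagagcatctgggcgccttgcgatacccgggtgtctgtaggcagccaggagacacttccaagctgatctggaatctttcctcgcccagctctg
ZSCAN16: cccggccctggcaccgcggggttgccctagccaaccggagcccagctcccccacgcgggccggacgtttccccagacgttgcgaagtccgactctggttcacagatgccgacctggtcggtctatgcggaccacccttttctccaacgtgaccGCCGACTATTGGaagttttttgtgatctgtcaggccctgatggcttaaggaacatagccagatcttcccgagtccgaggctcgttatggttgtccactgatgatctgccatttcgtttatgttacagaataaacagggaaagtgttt
LAP3: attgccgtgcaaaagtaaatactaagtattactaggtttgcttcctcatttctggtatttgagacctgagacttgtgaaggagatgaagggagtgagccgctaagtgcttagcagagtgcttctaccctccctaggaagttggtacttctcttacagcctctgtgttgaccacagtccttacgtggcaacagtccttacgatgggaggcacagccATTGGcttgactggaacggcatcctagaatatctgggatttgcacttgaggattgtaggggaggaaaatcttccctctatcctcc
ENSG00000290002: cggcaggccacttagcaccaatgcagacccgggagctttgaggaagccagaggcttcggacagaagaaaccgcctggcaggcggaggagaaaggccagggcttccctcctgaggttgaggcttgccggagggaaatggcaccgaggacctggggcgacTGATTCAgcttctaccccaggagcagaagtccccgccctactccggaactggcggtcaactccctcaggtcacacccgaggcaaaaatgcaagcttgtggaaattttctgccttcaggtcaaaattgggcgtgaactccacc
SLC27A3: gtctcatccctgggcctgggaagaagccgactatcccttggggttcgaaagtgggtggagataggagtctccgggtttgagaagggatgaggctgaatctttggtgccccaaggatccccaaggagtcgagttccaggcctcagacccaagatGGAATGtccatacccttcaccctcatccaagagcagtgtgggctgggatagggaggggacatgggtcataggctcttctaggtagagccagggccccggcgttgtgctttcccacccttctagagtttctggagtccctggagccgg
GC made up 61.3% of the GATAD1 window, 61.7% of the LTN1 window, 56.3% of the ZSCAN16 window, and 47.3% of the LAP3 window. The LTN1 window held 22 CpG dinucleotides and the ZSCAN16 window 21, against 11 in the GATAD1 window, 13 in that of ENSG00000290002, 7 in that of SLC27A3, and 5 in that of LAP3. The 6 sites thus ranged from CpG-dense to CpG-poor sequence.

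At these 6 sites WDR5 fragments remained under MS67. Fragment counts here and below are not divided by coverage unless stated, and coverage was the lower in the MS67 library. The GATAD1 summit had 26 fragments with DMSO and 22 with MS67 (−log10 q 18.8 and 19.2). The LTN1 summit had 17 and 16, and the ZSCAN16 summit had 14 in each library. The LAP3 summit had 13 with DMSO and 18 with MS67, the ENSG00000290002 summit 24 and 18, and the SLC27A3 summit 30 and 20. None of the 6 had an SS18::SSX peak in either list.

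The name distal was borne out for only some of the members. The rule leaves out 100 bp downstream of a start site, and 1766 of the 4223 members (41.8%, interval 40.3 to 43.3) were centred 101 to 1000 bp downstream of one, 932 of them within 500 bp. Another 1156 (27.4%) lay 1 to 10 kb away, 1301 (30.8%) beyond 10 kb, and 175 (4.14%) beyond 100 kb. Within 5 kb of a start site lay 62.4% of the members (60.9 to 63.8) and 41.1% of the lost peaks (40.4 to 41.9). A start site outside the basic set, of another transcript or gene type, had 15.2% of the members within its promoter range. For protein-coding and lncRNA transcripts outside that set alone the share was 13.2%. With all transcripts of these genes used to define promoters, 3664 members remained. The regions are therefore called WDR5-only non-promoter sites, and the 3 zones are kept apart.

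The share of WDR5-only peaks kept with MS67 was higher just downstream of start sites than farther away. Of all WDR5 DMSO peaks 25.0% were kept, of all WDR5-only peaks 23.8%, and of the WDR5-only non-promoter peaks 19.1% (18.5 to 19.6). The kept share was 43.6% (40.8 to 46.3) at 101 to 300 bp downstream, 39.5% at 301 to 500 bp, 38.8% at 501 to 700 bp, 30.5% at 701 to 1000 bp, and 18.8% (17.3 to 20.3) at 1001 to 2000 bp. Beyond that it was between 13.1% and 15.2% up to 100 kb on either side, and 10.6% to 11.3% farther out. The promoter peaks that the rule left out joined this curve, with 44% kept at 0 to 100 bp downstream of the start site and 36.3% kept over all 8494 of them. The curve was not the same on the 2 sides of a start site. In the interval of 1 to 2 kb, 492 of 2624 downstream peaks were kept but 96 of 734 upstream peaks (13.1%, 10.7 to 15.7), with median −log10 q of 4.36 and 4.16.

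**Figure D1:**
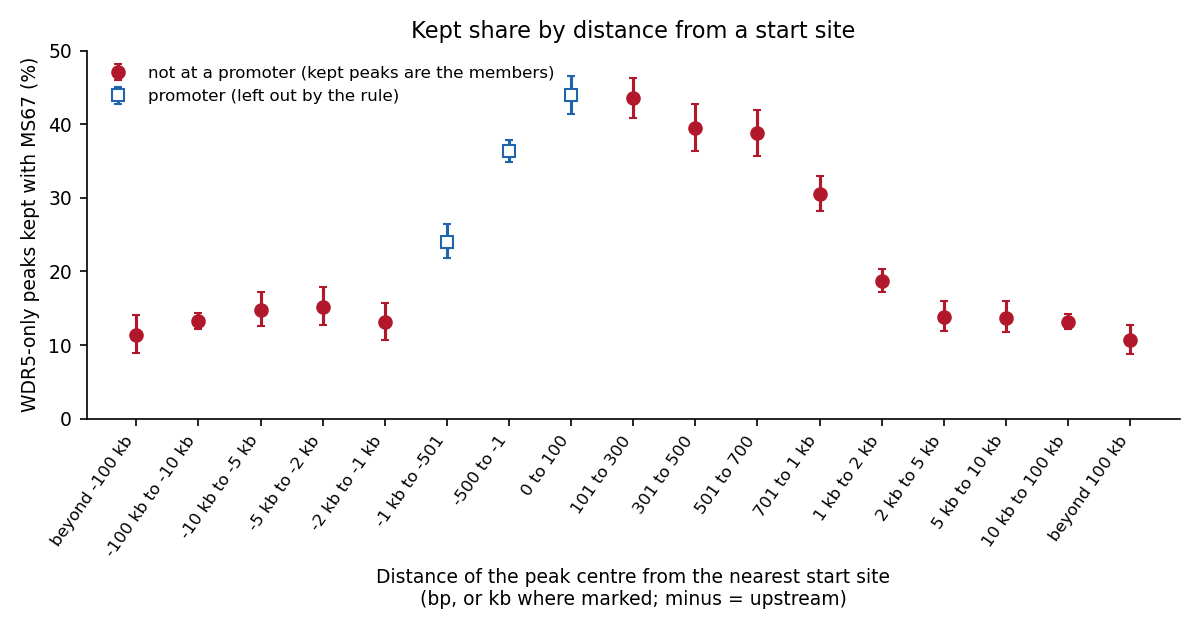
Percent of WDR5-only peaks of the DMSO library kept with MS67 (vertical axis) by distance of the peak centre from the nearest start site (horizontal axis, minus for upstream), with 95% exact intervals as bars. Filled circles are non-promoter peaks and open squares promoter peaks. The share is 43.6% at 101 to 300 bp downstream and 18.8% at 1 to 2 kb.

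Peak strength with DMSO moved with the kept share as well. The WDR5-only non-promoter peaks were ranked by −log10 q and cut into 10 classes of equal size. In the lowest class (−log10 q 1.30 to 2.27) 7.27% were kept, and in the highest (8.25 to 32.1) 50.9% were. In every class the peaks 101 to 1000 bp downstream of a start site had the higher kept share: 21.3% (17.0 to 26.2) against 5.0% (3.84 to 6.37) beyond 10 kb in the lowest class, 28.5% against 7.92% in class 5, and 63.0% (59.3 to 66.6) against 45.8% (42.2 to 49.4) in the highest. Peaks 1 to 10 kb away and beyond 10 kb had overlapping intervals in all 10 classes. Width followed distance too, with a median of 386 bp at 101 to 300 bp downstream, 296 bp at 1001 to 2000 bp, and 248 bp at 10001 to 100000 bp. Width was not matched in these classes, and its part in the kept share was not tested. Over all strengths the shares were 37.6%, 15.8%, and 12.9% in the 3 zones. These sizes depended on what counts as kept: the shares 101 to 1000 bp downstream and beyond 10 kb were 20.2% and 6.41% when 50% of the DMSO peak had to be covered, 58.7% and 18.9% when an MS67 peak within 1 kb sufficed, and 16.1% and 6.0% when both WDR5 lists were limited to −log10 q above 5. Over all zones 9.72%, 31.3%, and 8.91% were kept in these settings, in place of 19.1%. Some of the kept peaks near start sites met an MS67 peak centred in the neighbouring promoter, 16.1% of the members in that zone against 2.51% at 1 to 10 kb. When such MS67 peaks were not counted, 32.1% of the zone was kept and the difference to the sites beyond 10 kb was 19.3 in place of 24.7 percentage points. A WDR5 DMSO promoter peak lay within 1 kb of 37.0% of the members of this zone, and for 39.6% of those members such a promoter peak was kept too. The share that the shallower MS67 library takes in the loss was not tested.

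**Figure D2:**
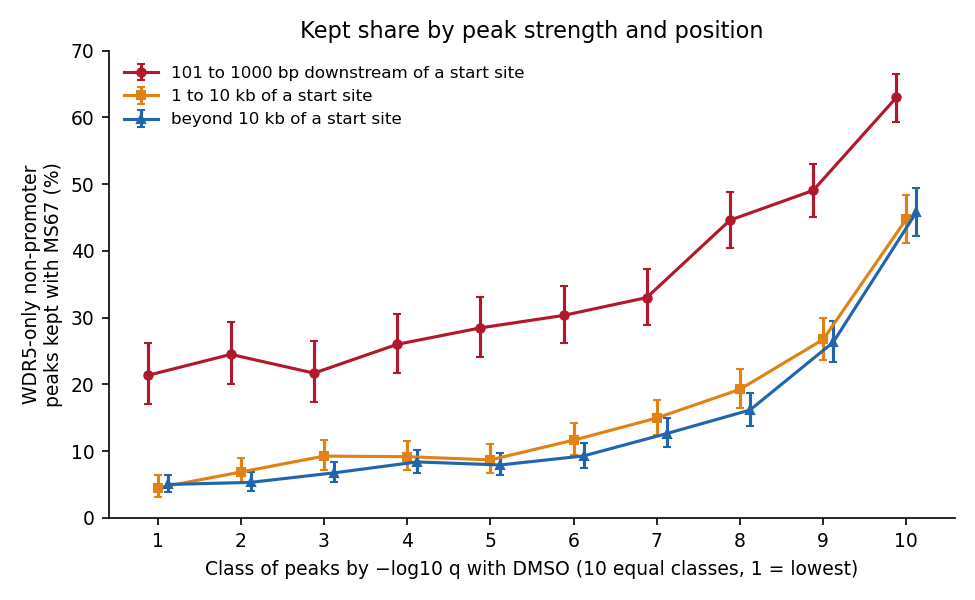
Percent of WDR5-only non-promoter peaks kept with MS67 (vertical axis) in 10 classes of −log10 q with DMSO (horizontal axis, 1 is the lowest), for 3 distances from a start site, with 95% exact intervals as bars. The sites 101 to 1000 bp downstream lie above the others in every class, from 21.3% to 63.0%.

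The members were wider and higher than the lost peaks in the DMSO library, which the overlap in the rule favours. Their width had a median of 444 bp (quartiles 280 and 694.5), against 249 bp (185 and 366) for the lost peaks. Their summits had a median of 15 fragments with DMSO (11 and 20), from 4 to 98, against 11 (8 and 16) for the lost peaks. Under MS67 the members had a median of 9 fragments (7 and 11), from 3 to 57, and a median −log10 q of 3.62. In 335 members (7.93%) the MS67 summit had at least as many fragments as the DMSO summit. Divided by the coverage of each library, the MS67 summit was the higher in 74.7% of the members, with a median ratio of 1.28 (quartiles 0.992 and 1.64). The median ratio was 1.33 within 101 to 1000 bp of a start site, 1.23 at 1 to 10 kb, and 1.28 beyond 10 kb. The ratio rests on peaks that had to be called with MS67, and low summits that missed the call are not in it. It is relative to the coverage of each library and has no spike-in scaling. It therefore does not give the change in the amount of WDR5 bound. With spike-in normalization the paper reported lower WDR5 binding across its sites with MS67.

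**Figure D3:**
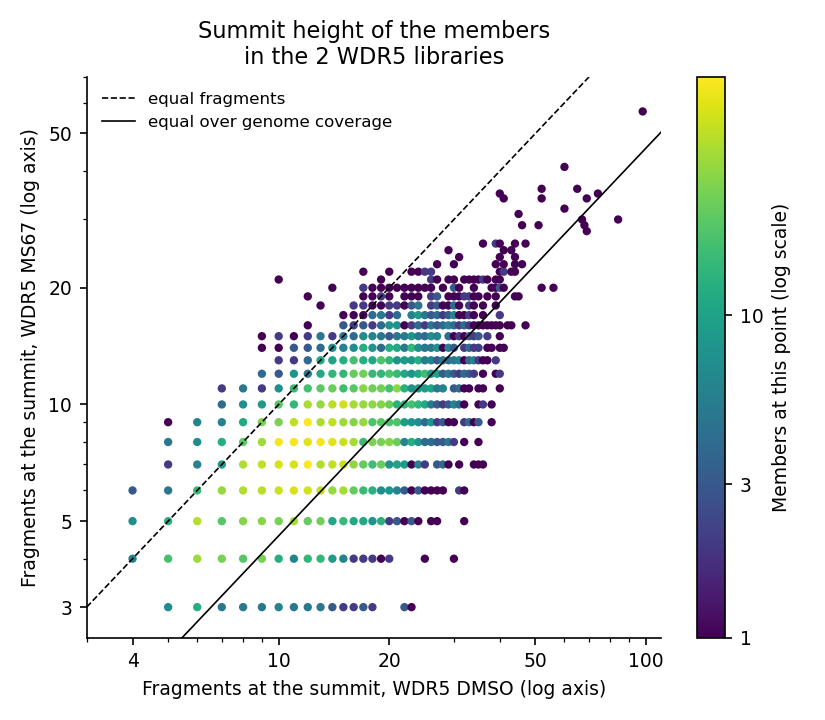
Fragments at the summit of each of the 4223 members in the WDR5 DMSO library (horizontal axis) and the WDR5 MS67 library (vertical axis), both on log axes, coloured by the number of members at each point. Most points lie below the dashed line of equal fragments and above the solid line of equal height over genome coverage; the medians are 15 and 9 fragments.

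The members of highest −log10 q under MS67 lay both close to and far from start sites. SEMA4F, a semaphorin, had a member in its first intron, 293 bp from a start site, with 17 fragments with DMSO and 19 with MS67. SPDYE10 had one 680 bp downstream with 17 and 15 fragments, but it is 1 of a family of closely similar genes, so its reads may come from another copy. VPS26C, a subunit of the retriever complex of endosomes, had one in its first intron with 40 and 22 fragments. Only the SEMA4F site of these 3 had more fragments with MS67. SPRYD7 also had a member with more of them, in a coding exon 110 bp from a start site, with 12 fragments with DMSO and 19 with MS67 (−log10 q 4.11 and 12.6). The member near MFSD4A, a transporter-family gene, lay 12457 bp from a start site and had 26 and 14 fragments. LRRCC1, a centrosome protein, had one 375 bp downstream with 27 and 23.

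The members of highest −log10 q with DMSO had fewer fragments with MS67. They were chosen for their height with DMSO, and the MS67 library had the lower coverage (0.168 against 0.368 fragments per bp). Divided by the coverage of each library, without spike-in scaling, the summit near ENSG00000288893 stood at 267 with DMSO and 338 with MS67. A PARD3 summit with 69 and 34 fragments stood at 188 and 202. The others of the 10 were lower with MS67 on this relative scale, that of SCAPER at 103 and 53.4. The site in the first intron of SCAPER, a cyclin A-binding protein of the endoplasmic reticulum, had 38 fragments with DMSO and 9 with MS67. The site 4316 bp upstream of ZSCAN4 had 39 and 13, and the site in an intron of CPLX4, a complexin of synaptic release, had 36 and 10. An intron of TCP10L held one with 33 and 9 fragments. The MS67 summits of these 4 sites thus had between 9 and 13 fragments, and those of SCAPER and CPLX4 lay in bins of raised background. The widest member, 2434 bp, lay 9184 bp upstream of SP7, a transcription factor of bone-forming cells, and had 26 and 14 fragments. CABIN1, a calcineurin inhibitor, and RNF39 held the next widest, of 1841 and 1834 bp, with 22 fragments with DMSO in each and 9 and 7 with MS67. Among the members farthest from any start site was one 590838 bp from LINC02472 on chromosome 4, with 16 and 12 fragments.

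Sites on the 2 sides of each limit of the rule lay close together. The member with the smallest overlap shared 1 bp with an MS67 peak, in THEG, and 129 members shared fewer than 50 bp. Just outside, lost peaks near PTPRU, B3GNT7, and TTLL3 abutted an MS67 peak with 0 bp between them, and 2710 lost peaks lay within 1 kb of one. At the downstream promoter edge, members in CAD, the enzyme that starts pyrimidine synthesis, and in CFAP92 were centred 101 bp from a start site, with 13 and 12 fragments with DMSO and 9 and 10 with MS67. With 50% of the DMSO peak required to be covered, 2154 members remained, and with an MS67 peak allowed within 1 kb there were 6933.

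Most members lay inside genes. Introns held 63.2% of them (61.7 to 64.7), coding exons 8.10%, untranslated regions 5.68%, other exons 3.22%, and 19.8% (18.6 to 21.0) were intergenic. Of the lost peaks 61.3% (60.6 to 62.0) were in introns and 28.5% (27.9 to 29.2) intergenic. A first intron held 47.2% of the members (45.7 to 48.7) and 36.9% of the lost peaks (36.2 to 37.6). Within the zones these shares were close: 65.7% and 64.7% at 101 to 1000 bp, 52.6% and 49.7% at 1 to 10 kb, and 17.1% and 18.7% beyond 10 kb, with overlapping intervals in each. Intergenic sites made up 45.6% of the members beyond 10 kb (42.8 to 48.3) and 42.1% of the lost peaks there (41.1 to 43.1).

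The members were richer in GC and in CpG than the lost peaks, in every zone. GC of the 300-bp window had a median of 59.0% (quartiles 52.7 and 65.0) in the members, 53.3% (47.0 and 60.0) in the lost peaks, and 63.3% in the kept WDR5-only promoter peaks. The medians were 61.3% and 59.0% for members and lost peaks at 101 to 1000 bp, 58.7% and 54.0% at 1 to 10 kb, and 56.0% and 51.0% beyond 10 kb. The observed over expected CpG ratio had a median of 0.451 in the members, 0.289 in the lost peaks, and 0.689 in the kept promoter peaks. Windows with GC over 50% and a ratio over 0.6, called CpG-rich here, made up 32.2% of the members (30.8 to 33.7), 14.6% of the lost peaks (14.1 to 15.2), and 65.3% of the kept promoter peaks. Beyond 10 kb from any start site, 18.5% of the members (16.4 to 20.7) and 7.77% of the lost peaks (7.22 to 8.35) were CpG-rich.

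Read the other way, the kept share was 7.0% (6.26 to 7.79) in the lowest of 5 GC classes of equal size and 31.3% in the highest class. GC and strength moved together, since the median −log10 q was 3.44 in the lowest and 4.77 in the highest of these classes. Among the 20% of peaks with the highest −log10 q, 19.0% (15.1 to 23.4) were kept in the lowest GC class and 50.4% (47.8 to 53.1) in the highest. Among the 20% of peaks with the lowest −log10 q these shares were 3.52% (2.58 to 4.68) and 18.2% (15.3 to 21.5). The GC order was thus present at low and at high peak strength. Nearness to a start site and GC each went with a higher share: sites beyond 10 kb ran from 5.60% to 24.2% over the GC classes, and sites 101 to 1000 bp downstream from 18.9% to 46.4% in class 4 and 41.4% in class 5.

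**Figure D4:**
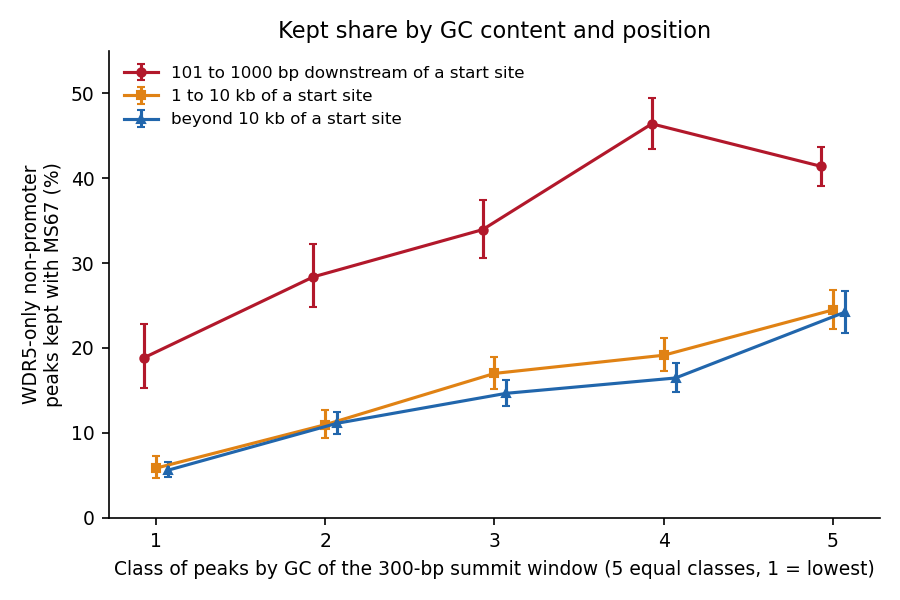
Percent of WDR5-only non-promoter peaks kept with MS67 (vertical axis) in 5 classes of GC content of the 300-bp window at the summit (horizontal axis, 1 is the lowest), for 3 distances from a start site, with 95% exact intervals as bars. Beyond 10 kb the share runs from 5.60% to 24.2%.

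Among 16 motifs searched on both strands of the 300-bp windows, those of SP/KLF, ETS, and NRF1 were more frequent in the members than in the lost peaks over all zones, and those of homeobox, FOX, SOX, RUNX, NFY, TEAD, and AP-1 factors less frequent, with intervals that did not overlap. Within the zones SP/KLF alone kept intervals apart in all 3. The SP/KLF letters GGGCGG, as in the GATAD1 window, were in 32.9% of the members (31.5 to 34.3), 19.2% of the lost peaks (18.6 to 19.8), 53.6% of the kept promoter peaks, 30.8% of all WDR5 DMSO peaks, and 46.0% of all 84607 promoters of the annotation (250 bp before to 50 bp after the start). In members and lost peaks they were in 41.3% and 34.3% at 101 to 1000 bp, 30.3% and 19.8% at 1 to 10 kb, and 23.7% (21.4 to 26.1) and 13.8% (13.1 to 14.6) beyond 10 kb. The ETS letters CCGGAAG were in 3.65% and 2.34%, and the NRF1 motif in 0.995% and 0.296%. The homeobox letters TAATTA were in 1.85% of the members (1.46 to 2.30) and 3.84% of the lost peaks (3.56 to 4.13), and the FOX letters TGTTTAC in 2.25% and 3.50%. The shares were 14.4% and 18.9% for SOX (ACAAAG), 14.6% and 17.8% for RUNX (TGTGGT), 22.7% and 27.6% for NFY (CCAAT), 15.7% and 17.8% for TEAD (GGAATG), and 6.35% and 8.28% for AP-1 (TGANTCA). For TEAD, AP-1, and FOX the intervals overlapped in every zone, with TEAD at 18.7% and 19.0% and AP-1 at 7.99% and 9.59% beyond 10 kb. ETS stood apart at 101 to 1000 bp (5.61% and 3.48%) but not at 1 to 10 kb (2.51% and 2.48%) or beyond 10 kb (2.00% and 1.87%). NRF1 stood apart beyond 10 kb only (0.692% and 0.159%), on few windows, 9 of 1301 members and 14 of 8818 lost peaks. NFY and the homeobox stood apart in both zones over 1 kb away, and SOX and RUNX at 1 to 10 kb only. The members lie closer to start sites than the lost peaks, so the shares over all zones also carry the mix of zones. They were also richer in GC in every zone. Only SP/KLF was split by GC class, so the part of base composition in the other motif differences was not tested. Intervals of members and lost peaks overlapped for CTCF (3.29% and 3.89%), the E-box CACGTG of MYC (5.75% and 5.45%), YY1 (AAGATGGC), ZNF143 (ACTACAA), and ATF/CREB (TGACGTCA). The REST motif was in 0 of 4223 member windows, which allows a share of up to 0.0873% (upper exact limit), and in 5 lost windows. In each of the 5 GC classes the peaks with the SP/KLF letters had the higher kept share. In the lowest class 13.7% of the 102 peaks with them were kept (7.71 to 22.0) and 6.84% of those without (6.10 to 7.63), and in the highest 33.1% (31.2 to 34.9) and 28.9% (26.8 to 31.0). In classes 2, 3, and 4 the intervals overlapped, with 17.5% and 13.1%, 20.9% and 18.5%, and 27.7% and 23.7%. A match is only a run of letters and says nothing of which factor was bound.

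**Figure D5:**
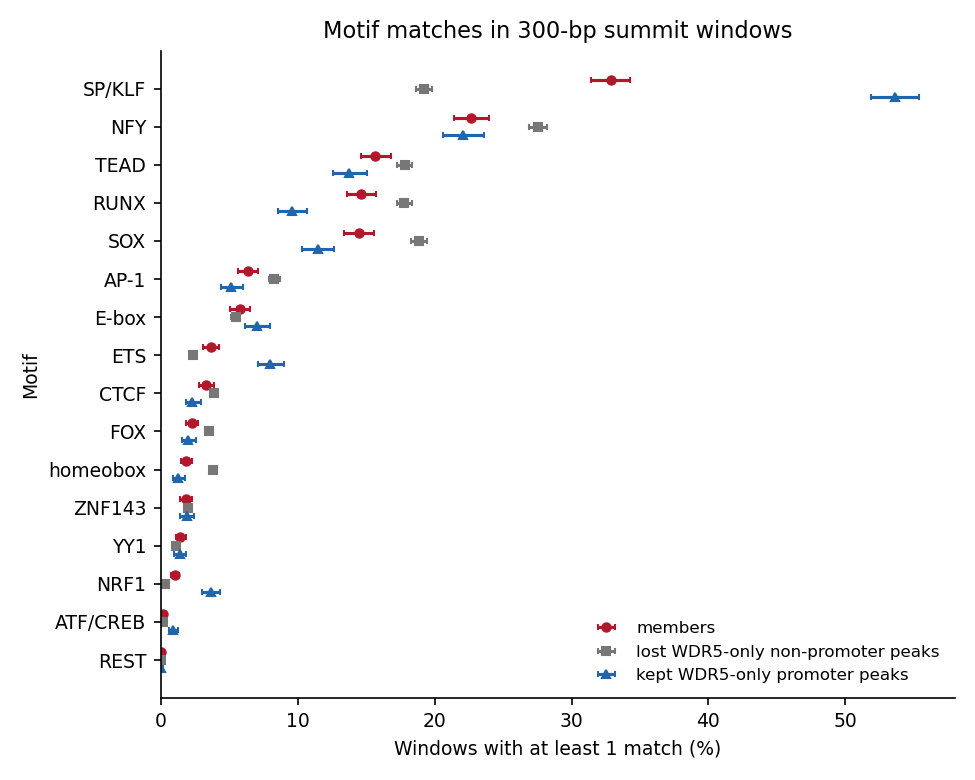
Percent of 300-bp summit windows with at least 1 match (horizontal axis) for 16 motifs (vertical axis) in the members, the lost WDR5-only non-promoter peaks, and the kept WDR5-only promoter peaks, with 95% exact intervals as bars. SP/KLF stands at 32.9%, 19.2%, and 53.6%.

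Few of these sites overlapped an SS18::SSX peak under MS67, in the one list that the rule had not used. That list held 1175 peaks, against 15141 with DMSO, and sites with a DMSO peak were already left out by the rule. A low share was thus largely set in advance. Of the members, 18 (0.426%, 0.253 to 0.673) overlapped an SS18::SSX MS67 peak, against 33 lost peaks (0.184%, 0.127 to 0.258) and 1.20% of all WDR5 DMSO peaks, which include those with an SS18::SSX DMSO peak that the rule left out. The intervals of members and lost peaks overlapped slightly. The strongest was a 1150-bp member 57121 bp downstream of a start site of ZCCHC2, with 28 WDR5 fragments with DMSO, 11 with MS67, and 24 SS18::SSX fragments with MS67 (−log10 q 6.23). A member in the first intron of DNMBP had 17 WDR5 fragments with DMSO, 15 with MS67, and 19 of SS18::SSX with MS67. HEY1, a Notch target gene, held one with 29, 13, and 14 fragments. The ZCCHC2 and HEY1 sites lay in bins of raised background, whose part in these peaks was not tested. The SS18::SSX −log10 q of the other sites was below that of ZCCHC2. An SS18::SSX DMSO peak stood within 1 kb of 11.6% of the members (10.6 to 12.6) and 10.7% of the lost peaks (10.3 to 11.2). Some of the 18 were among these members, such as the DNMBP site (610 bp away) and one in ARHGEF10 (4 bp away). The ZCCHC2 and HEY1 sites lay 8597 and 16881 bp from such a peak. Around 4 target genes of the fusion, 2 members lay within 50 kb of MNX1, with 19 and 12 fragments with DMSO and 7 and 8 with MS67, 1 lay within 50 kb of NTSR1 with 9 and 6, and none lay that near to SOX8 or SIM2.

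The members were spread over all chromosomes, with local clusters. The kept share was 27.6% on chromosome 19 (301 of 1089), 23.6% on X, 22.8% on 7, and 21.6% on 10, and 13.2% on chromosome 4 (110 of 834) and 14.4% on 14. PARD3, a cell polarity gene on chromosome 10, held 14 members, more than any other gene, out of 49 WDR5-only non-promoter peaks. CTIF, GLI2, a transcription factor of the Hedgehog pathway, and GMDS held 7 each, STAU2 held 6, and DNM3 and LDLRAD4 held 5 each. The 2 Mb of chromosome 10 from 34 to 36 Mb held 41 members of 123 such peaks (33.3%). Their summits had 9 to 98 fragments with DMSO (median 33) and 7 to 57 with MS67 (median 22), including the member in CCNY (cyclin Y) with 52 and 36 and the member in PARD3 with 68 and 29. The local background there was a median of 17.6 times the genome coverage in each WDR5 library, against 5.13 times for all members with DMSO, and in the 1 Mb around GLI2 it was 20.2 times. The part of this background in the number of members there was not tested. Bins of raised background held 9.87% of the members (8.99 to 10.8) and 9.05% of the lost peaks (8.64 to 9.48).

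Sets of genes that bear on WDR5, the fusion, or this tumour were read against all protein-coding genes, of which 3490 of 20007 (17.4%) had a member in the body or within 10 kb of a start site. Any WDR5-only non-promoter peak was found for 50.3% of these genes, and 34.7% of the genes with such a peak had a member. Among 16 genes of the KMT2 complexes, 13 had any such peak, and 5 (38.5% of those 13) had a member. KMT2B, an H3 lysine 4 methyltransferase, had a member in a coding exon with 31 fragments with DMSO and 11 with MS67 and another in an intron with 14 and 11. MEN1, the menin subunit, had one with 17 and 7, and CXXC1, which binds unmethylated CpG, one with 18 and 14. NCOA6 had one 625 bp downstream of a start site with 8 and 10 fragments and another near TP53INP2. The member in KMT2D lay nearest to a start site of RHEBL1. WDR5 itself had none.

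Of the SWI/SNF genes, 6 of 28 had a member. Any WDR5-only non-promoter peak was found for 18 of the 28, and 33.3% of these had a member, against 34.7% over all protein-coding genes. SMARCD2, which encodes a BAF60 subunit, had a pair in introns with 24 and 14 fragments with DMSO and 17 and 11 with MS67, and its paralog SMARCD3 had one with 36 and 26. SS18, the gene that is fused in this tumour, had one 610 bp downstream of a start site with 14 and 8. ARID1B, PHF10, and BCL7C were the others.

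Polycomb genes had members in 10 of 32 cases. Of the 32, 22 had any WDR5-only non-promoter peak, and 45.5% of these had a member, against 34.7% over all protein-coding genes. EZH1, a methyltransferase of PRC2, had one with 16 and 8 fragments, PHF19, a PRC2 accessory subunit, one with 19 and 9, and PCGF5, a PRC1 subunit, one with 19 and 10. KDM2B, which brings PRC1 to CpG islands, had one with 31 and 10. All 4 lay in introns within 1 kb of a start site, whereas the member in JARID2 lay 152068 bp from the nearest one.

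Among cytosolic ribosomal protein genes 6 of 82 (7.32%) had a member, against 17.4% of all protein-coding genes. Of the 82, 35 (42.7%) had any WDR5-only non-promoter peak, against 50.3% of all protein-coding genes. Of those 35 genes 17.1% had a member, against 34.7%. The rule leaves out promoter peaks, so WDR5 at the promoters of these genes does not enter these shares. Of the 6 members, 2 lay nearest to a start site of the ribosomal protein gene itself, those of RPS28 (16 and 6 fragments) and RPS16 (19 and 8). The member in RPL14 lay 218 bp from a start site of ENTPD3-AS1, and that in RPL4 383 bp from one of SNAPC5.

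Growth factor receptors and signalling genes had members in 10 of 40 cases. Of the 40, 29 had any WDR5-only non-promoter peak, and 34.5% of these had a member, against 34.7% over all protein-coding genes. PDGFRA had one with 17 fragments with DMSO and 14 with MS67, and IGF1R had a pair with 17 and 19 fragments with DMSO and 14 and 15 with MS67. FGFR2 had one 20019 bp from a start site with 20 and 11, FGF2 one with 10 and 9, and CCND3, a D-type cyclin, one with 13 in each library. The FZD8 members lay in the chromosome 10 stretch of raised background. Of the AP-1 and TEAD/YAP genes 6 of 22 had a member, among them FOS (13 and 9 fragments, 1202 bp upstream) and TEAD4 (24 and 10). Any WDR5-only non-promoter peak was found for 15 of the 22, and 40.0% of these had a member.

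Developmental transcription factor genes had members in 25 of 165 cases (15.2%) and collagens in 7 of 44 (15.9%), against 17.4% of all protein-coding genes. Of the genes with any WDR5-only non-promoter peak, 26.9% of the transcription factor genes and 25.9% of the collagens had a member, against 34.7% of all protein-coding genes. FOXO1 held a pair, in a coding exon and an untranslated region, with 15 and 16 fragments with DMSO and 6 in each with MS67. TBX1 held a pair with 26 and 19 fragments with DMSO and 15 and 12 with MS67. SOX4 had a member 5965 bp upstream with 22 and 14, and TBX20 one with 12 in each library. COL2A1, the main collagen of cartilage, had one with 35 and 14 fragments, and COL6A1 one with 18 and 15. The number of genes with a member depends on how long a gene is and how many peaks it holds, and no list was tested against the others.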

How the data were processed

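CUT&RUN libraries of HSSY II cells were used, 4 in all and 1 per antibody and treatment. The authors aligned the reads to hg38 and mm10, removed duplicates with Picard, and called peaks with MACS2, 1 library at a time. The deposited values of a peak are its position, a fold enrichment at the summit (the ratio of pileup to local background), and the −log10 of its p and q. The labels name SAMtools 1.9, bedtools 2.28.0, and deepTools 3.3.0. No control library or spike-in scaling entered these values.

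Summit fragments and background were recovered from fold and p as whole numbers of fragments, which fitted 100% of peaks to within 0.001 in −log10 p. The step was also tested on simulated data. Start sites were the 84607 distinct starts of basic transcripts of protein-coding and lncRNA genes in GENCODE 44. Centres were placed by the order coding exon, UTR, other exon, intron, intergenic. GC, CpG, and motifs came from 300 bp around each DMSO summit. Raised background means the top 5% of 1-Mb bins (133 of 2648) by median background. The genome used held no repeat marks, so repeats were not analysed here.

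Named members were the 10 of highest −log10 q in either WDR5 list (and the 5 highest in each zone), the widest, the farthest from a start site, those at the limits of the rule, those with an SS18::SSX MS67 peak, and those of the listed genes, of which a selection is printed. The members and lists were chosen with earlier results of these data known. Alternatives were other overlaps, stricter peaks, other promoters, merged peaks, no raised bins, and other windows. Intervals of shares are exact Clopper-Pearson intervals at 95%. Those of the GC median and the summit ratio came from binomial order statistics, and that of the difference between zones from a normal approximation, also at 95%. The tools were pysam 0.24.0, scipy 1.17.1, numpy 2.4.6, matplotlib 3.10.9, and pandas 2.3.3 in Python 3.11.15. Sequences were read from hg38, and those on chromosome 8 or over a UTR were passed over.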

Additional observations from a re-analysis of the deposited data

How the results depend on the processing

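The number of members and the kept share followed the definition of kept and the peak threshold. With 50% of the DMSO peak covered there were 2154 members (9.72% kept, and a difference between sites 101 to 1000 bp downstream and beyond 10 kb of 13.8 percentage points). With an MS67 peak within 1 kb there were 6933 (31.3%, 66.0% in introns, 66.4% within 5 kb of a start site, median GC 57.0%, difference 39.8). With −log10 q above 5 in the WDR5 lists there were 690 (8.91%, 61.4%, 67.2%, 60.0%, difference 10.1). With −log10 q above 3 and fold above 6 there were 460 (13.3%, 58.9%, 65.2%, 60.3%, difference 13.0, and 0.217% with an SS18::SSX peak under MS67). With promoters of 1000 bp on both sides there were 2457 (14.1%, 58.7%, 35.3%, 57.0%), and the difference has no value there because no site is left 101 to 1000 bp downstream. With start sites of any gene type 17.9% were kept, 58.6% lay within 5 kb, and GC was 58.3%. Without bins of raised background 64.3% lay within 5 kb, and with neighbouring peaks merged 21.9% were kept, GC was 58.3%, and the difference was 35.3. Without MS67 peaks at promoters the difference was 19.3. The difference was above 0 in each setting that gave one, and leaving out members with an SS18::SSX peak within 1 kb moved no share, GC median, or difference beyond its interval. With the MS67 summit inside the DMSO peak the ratio of summits was 1.26. In windows of 200 bp the motif shares were 1.89% for CTCF, 4.07% for AP-1, 10.0% for TEAD, 14.5% for NFY, 24.7% for SP/KLF, 3.77% for the E-box, 2.46% for ETS, 0.450% for NRF1, 1.07% for YY1, 1.37% for ZNF143, 1.56% for FOX, 9.0% for SOX, 0.995% for the homeobox, 9.50% for RUNX, and 0.0237% for ATF/CREB, since a shorter window holds fewer letters. Of 11 recomputed numbers of members, 6 were within 1.5 times the reported number, and of 88 other recomputed values 42 lay inside the interval of the reported value. The difference between zones, the MS67 peaks at promoters, and the set of all transcripts were added after seeing the data.

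No paired analysis was possible because each condition had 1 library. The MS67 library had less than the coverage of the DMSO library (0.168 against 0.368 fragments per bp), so a lost peak can be one that was not detectable at that depth.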
